A study of Mus musculus with 8 samples.

Results

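The BCL2 family genes examined here were 10 rows of the RNA count tables, picked by symbol: the survival genes Bcl2, Bcl2l1 and Mcl1, the effector genes Bax and Bak1, and the BH3-only genes Bcl2l11, Bid, Bbc3, Pmaip1 and Bmf. All 10 were found among 24421 gene symbols, and 10 of 10 passed the filter on low counts. RNA was sequenced from mouse leukemic bone marrow cells of C57BL/6 background that carried the MLL-AF9 fusion oncogene and had been sorted for high c-KIT, the stem cell factor receptor. The WT group came from Ikzf2 f/f mice (an allele flanked by recombination sites and left intact) and the KO group from Ikzf2 Δ/Δ mice, with 2 libraries each. Ikzf2 encodes Helios, a zinc finger factor of the Ikaros family. MLL-AF9, the sort and a thaw from frozen marrow were common to both groups. The labels name no Cre driver, age or sex and do not say whether replicates were separate mice. The p-values therefore reflect only how these libraries vary. That variation may be technical in WT, while the KO libraries differed in sex by their RNA, as given below. Replicate numbers here are those of the sample titles. The names of the deposited files carry other numbers, none of them shared between WT and KO.

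BCL2 family proteins decide at the outer membrane of the mitochondrion whether a cell starts intrinsic apoptosis. BCL2, BCL-XL (from Bcl2l1) and MCL1 hold back BAX and BAK, which otherwise form pores that release cytochrome c. BH3-only proteins such as BIM (Bcl2l11), BID, PUMA (Bbc3), NOXA (Pmaip1) and BMF bind the survival proteins or activate the effectors, and NOXA binds mainly MCL1. Acute myeloid leukemia cells often depend on MCL1 or BCL2, and drugs that occupy the BH3 groove of BCL2 are used against this disease.

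Library depth ranged from 16006081 to 19286090 gene counts, of which the 10 genes together held 0.0981% to 0.145%. A count of 3 equalled 0.150 to 0.186 CPM (a count scaled by its library's total, here with TMM factors), so the lowest count of any of the 10 genes, 94 for Bbc3 in KO replicate 1, lay well above that floor. The deleted gene, Ikzf2, stood at 283 and 271 CPM in WT against 10.9 and 26.5 CPM in KO. KO replicate 1 stood apart in the X-inactivation RNA Xist, at 833 CPM against 0.352 to 0.600 CPM in the other libraries. The Y-linked gene Ddx3y was at 109.5 and 102.4 CPM in WT, 0.0619 CPM in KO replicate 1 and 70.1 CPM in KO replicate 2. By these genes KO replicate 1 was female and the other libraries were male, so the KO libraries were not from the same mouse. The sorted receptor Kit was at 216 and 330 CPM in WT against 236 and 376 CPM in KO, and Myb and Hoxa9, genes of leukemic progenitors, were above 200 CPM in each library. Of 9 progenitor and leukemia markers, 3 had log2 fold changes above 0 and 6 below, with a median of -0.18. Both KO libraries were below both WT libraries for 3 of them, against 19.1% of all tested genes. Flt3 was at 69.1 CPM in KO replicate 1, against 248 and 153 CPM in WT and 286 CPM in KO replicate 2. Neutrophil markers were also present and higher in KO. The summed level of 13 such genes was 1430 and 6260 CPM in WT against 23000 and 30800 CPM in KO. Summed markers of erythroid cells were at 2.23 to 2.54 CPM, with 5 of 9 at 0 in all libraries, and those of megakaryocytes and mast cells at 24.4 to 130 and 33.8 to 101 CPM.

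Because Bcl2l11 gave the clearest difference between the groups, the sequence upstream of its outermost start is shown first. It covers the 250 bases before the start, at chr2:128125788-128126037 on the plus strand (RefSeq, GRCm38.p6, the assembly that mm10 names), 5′ to 3′, with capitals marking a match to the FOXO core GTAAACA.
Bcl2l11: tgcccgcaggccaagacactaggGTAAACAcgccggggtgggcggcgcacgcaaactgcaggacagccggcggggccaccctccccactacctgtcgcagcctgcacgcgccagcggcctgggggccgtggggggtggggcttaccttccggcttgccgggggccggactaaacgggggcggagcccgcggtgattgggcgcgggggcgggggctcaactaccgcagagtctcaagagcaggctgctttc

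Upstream windows of 250 bases were available for 9 of the 10 genes, 16 windows in all since several genes have more than 1 start. They were searched on both strands for TGGGAA (the core bound by Ikaros family factors), GTAAACA (FOXO factors, known regulators of Bcl2l11 and Bbc3), TTCNNNGAA (STAT factors, known regulators of Bcl2l1) and TGANTCA (AP-1). These motifs differ in sequence and no 2 matches overlapped. GTAAACA or its complement was found in 2 of the 16 windows (Bcl2l11 and Bbc3), and in 3.17% of 32851 windows of all genes. TGGGAA was found in 2 of the 16 windows (Bax and Bmf), and in 21.6% of all windows. TTCNNNGAA and TGANTCA, held by 7.02% and 6.75% of all windows, were in 0 of the 16. The matches are shown with their flanks, capitals marking the motif as read on the gene's strand, to let the sites be compared with the expression values below.
Bcl2l11, FOXO core, chr2:128125801-128125827, plus strand: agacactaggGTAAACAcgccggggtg
Bbc3, FOXO core read on the opposite strand, chr7:16310084-16310110, plus strand: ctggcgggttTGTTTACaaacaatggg
Bax, Ikaros core, chr7:45467020-45467045, minus strand: catgaatctaTGGGAAgaagaaataa
Bmf, Ikaros core, chr2:118544718-118544743, minus strand: cgaggaacagTGGGAAaccagtaatc
Bmf, Ikaros core, chr2:118544609-118544634, minus strand: tgtctgtgtcTGGGAAcccaggcaca

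A match of letters is a description of the window, and no binding was measured here. Of the FOXO genes, Foxo1 had 6.90 and 6.37 CPM in WT against 6.13 and 4.64 CPM in KO, and Foxo3 had 23.6 and 25.0 CPM in WT against 6.00 and 30.2 CPM in KO. Both KO libraries were below both WT libraries for Foxo1, while the groups overlapped for Foxo3. Neither passed edgeR or DESeq2, and both are given here because of this motif, after their values were seen.

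The comparison of KO with WT asked whether loss of Ikzf2 changed the RNA of survival and death genes in these cells. Of the 10 genes, 0 passed edgeR's quasi-likelihood test at an adjusted p of 0.05 over all 12623 genes tested, where 0% of genes passed. At an unadjusted p under 0.05 stood 1 of the 10, against 7.67% of all genes, and voom called 0 of 10 (0% of all genes). DESeq2 called 1 of 10, Bcl2l11, as higher in KO, against 2.62% of the 13422 genes to which it gave an adjusted p. Both KO libraries were above both WT libraries for 2 of 10 genes (Bcl2l11 and Bcl2l1), where 18.1% of all tested genes did so, and below for 1 (Bak1), against 19.1%. These shares of the 10 were near those of all genes. The median log2 fold change of the 10 was -0.12, with 4 above 0 and 6 below, and that of all tested genes was -0.0040.

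**Figure D1:**
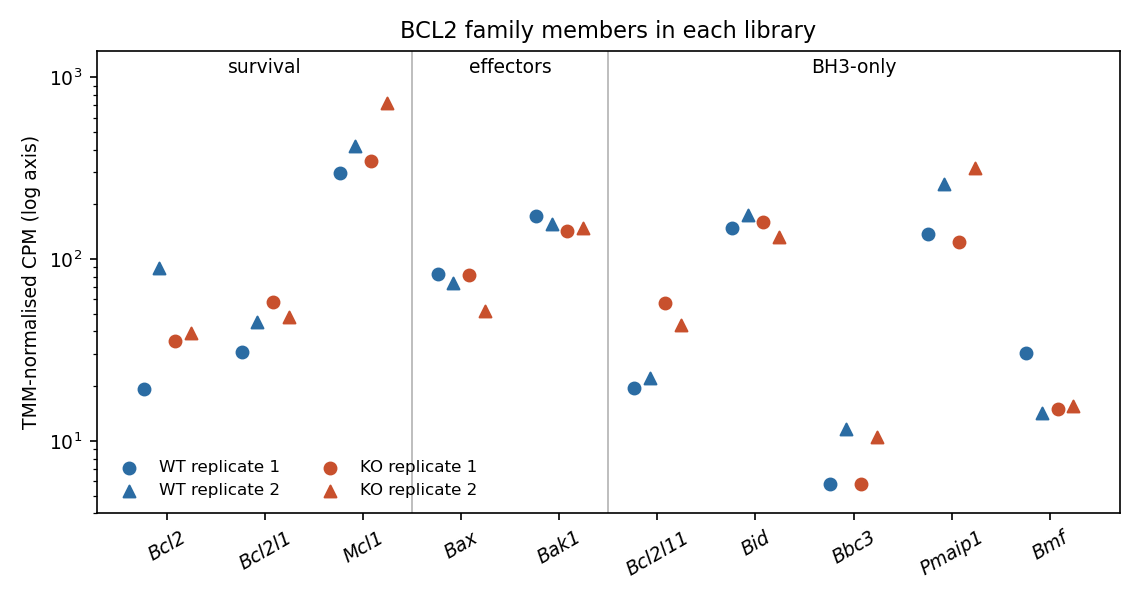
TMM-normalised CPM (log axis) of the 10 BCL2 family genes, 1 point per library, blue for WT and orange for KO, circles for replicate 1 and triangles for replicate 2. The KO points of Bcl2l11 lie above both WT points, while Mcl1, Bbc3 and Pmaip1 have both triangles above both circles.

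Bcl2l11 encodes BIM, a BH3-only protein that can bind all the main survival proteins and that is needed for the death of blood cells deprived of cytokines. Its level was 19.5 and 22.2 CPM in WT replicates 1 and 2 and 57.6 and 43.5 CPM in KO replicates 1 and 2, from raw counts of 390, 419, 931 and 741. The groups did not overlap, and the gap between them was wider than the spread within either. The fold change was 2.42 (log2 fold change 1.28, SE 0.26, 95% interval 0.63 to 1.92, n = 2 per group). Bcl2l11 rose by DESeq2 (adjusted p = 0.00717) but not by edgeR's quasi-likelihood test over all genes (adjusted p = 0.444; unadjusted p = 0.0035) or voom (adjusted p = 0.481). With 1 library left out, DESeq2 kept the call without KO replicate 2 (adjusted p = 0.0266) and lost it without WT replicate 1 (0.567), WT replicate 2 (0.182) and KO replicate 1 (0.377). The edgeR fold change stayed between 1.06 and 1.46 on the log2 scale in those 4 settings. The span of Bcl2l11 overlaps that of another protein-coding gene, Acoxl, which held 4 to 15 counts, and without a stated strand setting reads of both cannot be told apart. Within replicate number 1 the log2 difference was 1.56 and within number 2 it was 0.96.

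Some markers of other cell types also differed between KO and WT, in both directions. All 13 neutrophil markers found had log2 fold changes above 0 (median 2.47), and for 10 of them both KO libraries were above both WT libraries, against 18.1% of all tested genes. Their sums are given above, and 0 of them were at 0 in every library. Of the 13, edgeR called 0 and DESeq2 5, all higher, against 2.62% of all genes given an adjusted p. Of 7 tested monocyte and macrophage markers 4 were above 0 and 3 below, with a median of 0.90. DESeq2 called 3 of them, all higher in KO: F13a1 had 25.5 and 14.6 CPM in WT against 232 and 154 CPM in KO, Csf1r had a log2 fold change of 1.40 and Mpeg1 of 1.47. The sum of all 11 markers of this list, 2310 and 1330 CPM in WT against 2150 and 1900 CPM in KO, was mostly Ly6c2, which had 1933 and 856 CPM in WT against 1258 and 1207 CPM in KO. Cd68 was lower in both KO libraries, with a log2 fold change of -0.65. The sum of 11 dendritic cell markers was 359 and 221 CPM in WT against 1600 and 408 CPM in KO. The most abundant by mean, Cd74, had 2.45 and 7.96 CPM in WT against 821 and 58.6 CPM in KO. Outside KO replicate 1 the sum was mostly Flt3, which is also among the progenitor markers above. Flt3 had 248 and 153 CPM in WT and 286 CPM in KO replicate 2. Of 7 tested dendritic cell markers 4 were above 0 and 3 below, the latter being Itgax (-1.29), Bst2 (-0.64) and Flt3 (-0.18), with both KO libraries below both WT libraries for Bst2. The plasmacytoid marker Siglech was at 0 in both WT libraries and at 0.742 and 0.117 CPM in KO, and Xcr1, a marker of conventional dendritic cells, stood at 0.176 to 0.318 CPM in all 4. Of 8 stromal and endothelial markers 2 were tested, and both were lower in both KO libraries, against 19.1% of all tested genes. This list summed to 351 and 302 CPM in WT against 78.3 and 172 CPM in KO. DESeq2 called 1 of them lower, Pdgfrb, with 114 and 44.25 CPM in WT against 6.125 and 17.5 CPM in KO. T and NK cell markers summed to 104 and 69.7 CPM in WT against 96 and 136 CPM in KO. B cell markers summed to 24.5 and 18 CPM in WT against 36.2 and 25.7 CPM in KO. The part of such cells in the level of Bcl2l11 was not tested, and in bulk RNA fewer cells of a type and less RNA per cell cannot be told apart. The gene nearest to Bcl2l11 in profile was Tnfrsf1b, among the other 9 genes and the tested genes of 8 lists around the family (120 genes in all). The mean absolute difference between the 2 centred log2 CPM profiles was 0.16 over the 4 libraries, where the mean absolute deviation of Bcl2l11 from its own mean was 0.63.

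The other BH3-only genes gave no such separation. Bid, which links death receptors to mitochondria once its protein is cleaved, was nearly level, with 148 and 176 CPM in WT against 161 and 132 CPM in KO. Its groups overlapped, and its log2 fold change of -0.14 had a 95% interval from -0.70 to 0.41. Bmf, whose protein responds to changes of the cytoskeleton, had 30.6 and 14.3 CPM in WT against 15.0 and 15.6 CPM in KO. WT replicate 1 alone was high: the log2 fold change of -0.55 (SE 0.43) turned to 0.10 without that library.

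Bbc3 encodes PUMA and Pmaip1 encodes NOXA, both known targets of p53. Bbc3 was the scarcest of the 10 by counts, with 5.80 and 11.6 CPM in WT against 5.82 and 10.5 CPM in KO. Pmaip1 had 138 and 259 CPM in WT against 125 and 317 CPM in KO. Each was higher in replicate 2 than in replicate 1 of both groups, and the values of the groups interleaved. Their log2 fold changes were -0.089 (SE 0.55) and 0.16 (SE 0.53), and the sign of each turned with single libraries left out: for Bbc3 it was 0.51 once WT replicate 2 was dropped and 0.28 once KO replicate 1 was, and for Pmaip1 -0.23 once WT replicate 1 was dropped and -0.67 once KO replicate 2 was. The 95% intervals, -1.48 to 1.30 and -1.19 to 1.50, leave room for changes of more than 2-fold either way. Bbc3 and Pmaip1 were each other's nearest profile, at a mean absolute difference of 0.16.

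Of the effectors, Bak1 was the steadiest of the 10 genes by the ratio of its highest to its lowest library. It had 173 and 155 CPM in WT against 144 and 148 CPM in KO, a ratio of 1.21, followed by the BH3-only gene Bid at 1.33 and the effector Bax at 1.61. Both KO libraries lay below both WT libraries, by little: the log2 fold change was -0.17 (SE 0.20, 95% interval -0.66 to 0.32). Without a stated strand setting, its reads cannot be told from those of Ggnbp1, a gene whose span overlaps it and that held 165 to 469 counts beside 2320 to 3462 for Bak1. Bax had 83.2 and 73.9 CPM in WT against 81.9 and 51.8 CPM in KO. KO replicate 2 alone was low, and without it the log2 fold change of -0.23 (SE 0.28) was 0.059.

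**Figure D2:**
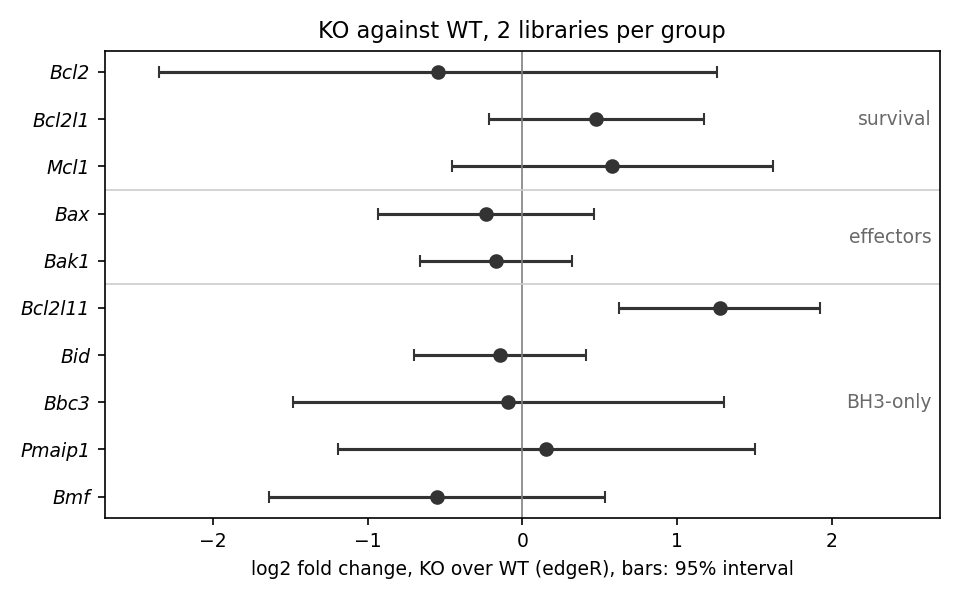
Log2 fold change of KO over WT by edgeR for the 10 genes, with 95% intervals as bars and 2 libraries per group. The interval of Bcl2l11 lies above 0, from 0.63 to 1.92, and those of the other 9 genes include 0.

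Among the survival genes, Mcl1 took the largest part of the counts, 75.6% to 89.3% of the 3 genes together. Gene lengths were not used here, so this is a share of reads and not of molecules. Mcl1 encodes a short-lived survival protein on which myeloid progenitors depend. It had 297 and 419 CPM in WT against 347 and 725 CPM in KO. The groups overlapped, and replicate 2 was higher than replicate 1 in each. The log2 fold change was 0.58 (SE 0.41, 95% interval -0.46 to 1.62) and was -0.044 without KO replicate 2.

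Bcl2l1, the gene of BCL-XL, had 31.0 and 45.4 CPM in WT against 58.2 and 48.2 CPM in KO. Both KO libraries were above both WT libraries, although KO replicate 2 exceeded WT replicate 2 by little. The log2 fold change was 0.48 (SE 0.28, 95% interval -0.22 to 1.17), with an adjusted p of 0.793 by edgeR and 0.859 by DESeq2. Its span overlaps that of Cox4i2, which held 0 to 5 counts. It ran from 0.23 without WT replicate 1 to 0.79 without WT replicate 2. Within replicate number 1 the log2 difference was 0.91 and within number 2 it was 0.087.

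Bcl2, the target of BH3-mimetic drugs and a gene that leukemic stem cells are known to express, was the least steady of the 10. It had 19.4 and 89.6 CPM in WT against 35.6 and 39.0 CPM in KO. The WT libraries differed by 4.62-fold and both KO libraries lay between them. The log2 fold change of -0.55 (SE 0.70) thus had the widest interval, -2.35 to 1.26. Leaving out WT replicate 2 gave 0.96, and leaving out WT replicate 1 gave -1.26.

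Survival and death genes were then compared within each library. The summed CPM of the 3 survival genes was 348 and 554 in WT and 441 and 813 in KO, and that of the 7 death-promoting genes 598 and 712 in WT and 589 and 719 in KO. The log2 ratio of these sums was -0.78 and -0.36 in WT (mean -0.57 ± 0.30 SD, n = 2) and -0.42 and 0.18 in KO (-0.12 ± 0.42, n = 2). Such a ratio does not depend on library scaling, but it weighs long and abundant transcripts most, so only its differences between libraries can be read. KO replicate 2 had the highest ratio, and KO replicate 1 lay between the WT libraries. The difference of the means, 0.45, was near the spread within KO, and it was 0.16 without KO replicate 2 and 0.75 without KO replicate 1. It was 0.14 without Mcl1, and 0.25 when each gene counted equally, as a mean of log2 CPM.

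Against the effectors alone, the log2 ratio of the survival genes was 0.44 and 1.27 in WT and 0.97 and 2.02 in KO, and the groups overlapped. Against the BH3-only genes it was 0.024 and 0.20 in WT and 0.28 and 0.65 in KO, so that both KO libraries were above both WT libraries. That order was lost with equal weights, where the values were 0.60 and 1.43 in WT and 1.16 and 1.16 in KO.

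Ratios of single genes followed Bcl2l11 in part. The log2 ratio of Bcl2l1 to Bcl2l11 was 0.67 and 1.03 in WT and 0.014 and 0.15 in KO, a mean difference of -0.77 with no overlap. That of Bcl2 to Bcl2l11 was -0.0070 and 2.01 in WT and -0.69 and -0.16 in KO, with the KO libraries lower but a wide gap between the WT libraries. That of Mcl1 to Bcl2l11 was 3.93 and 4.24 in WT and 2.59 and 4.06 in KO, and KO replicate 2 lay between the WT values. The ratio of Mcl1 to Pmaip1, whose protein binds it, was 1.11 and 0.69 in WT and 1.48 and 1.19 in KO. The ratio of Bcl2l1 to Bax was -1.43 and -0.70 in WT and -0.49 and -0.11 in KO. In both of these the KO libraries were the higher ones. The groups overlapped for the other pairs formed. The log2 ratio of Bcl2 to Bax was -2.10 and 0.28 in WT and -1.20 and -0.41 in KO. That of Mcl1 to Bak1 was 0.78 and 1.43 in WT and 1.275 and 2.29 in KO. That of Bak1 to Bax was 1.06 and 1.07 in WT and 0.81 and 1.52 in KO. Among single genes, 18.1% of all tested had both KO libraries above both WT libraries and 19.1% below. No p is given for such ratios, since they were formed from genes chosen with results in view.

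**Figure D3:**
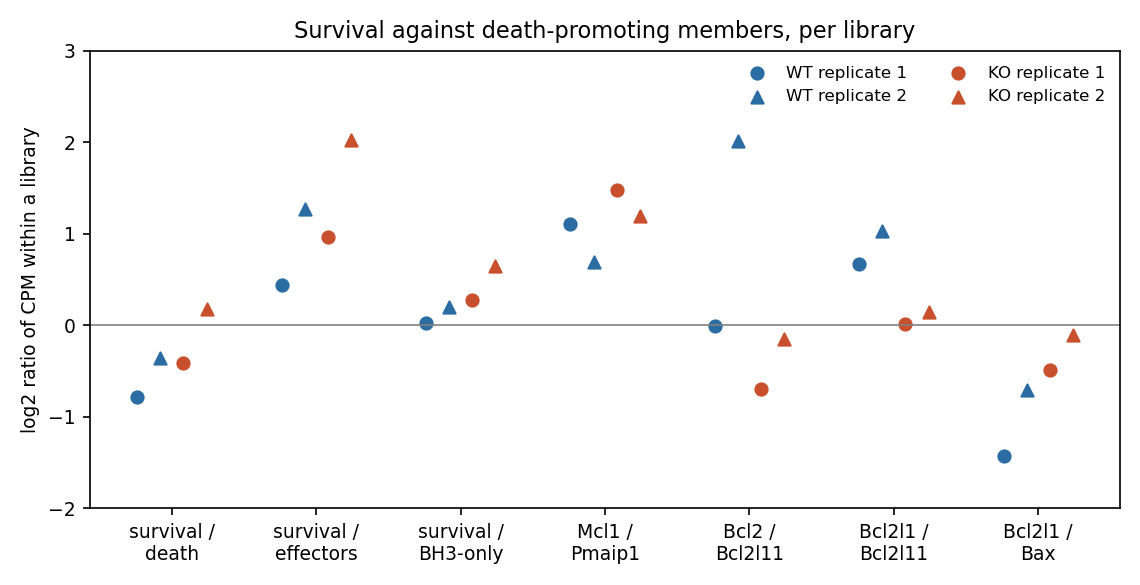
Log2 ratios of CPM within each library (vertical axis), 1 point per library, for summed groups of genes and for single pairs of genes. The survival over death ratio of KO replicate 1, -0.42, falls between the WT values of -0.78 and -0.36, while the ratio of Bcl2l1 to Bcl2l11 is lower in both KO libraries, at 0.014 and 0.15.

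The libraries were also compared by replicate number. Replicate 2 exceeded replicate 1 in both groups for 4 of 10 genes (Bcl2, Mcl1, Bbc3 and Pmaip1), against 28.5% of all tested genes. It was lower in both for 1 (Bax), against 29.5%. With 10 genes, these counts do not set the family apart from all genes. The differences on the log2 scale were 0.49 in WT and 1.06 in KO for Mcl1, 0.91 and 1.35 for Pmaip1, and 0.98 and 0.84 for Bbc3. For Bcl2 they were 2.20 and 0.13. Early response genes, which cells induce within minutes of stress or stimulation, moved with them: 13 of 13 were higher in replicate 2 of both groups, with medians of 1.51 in WT and 2.36 in KO. Their summed level was 1320 and 4410 CPM in WT against 2030 and 11900 CPM in KO. Mcl1 had the early response gene Nr4a1 as its nearest profile, at a mean absolute difference of 0.047 where its own mean absolute deviation was 0.39. Nr4a1 had 20.8 and 31.3 CPM in WT against 27.5 and 54.8 CPM in KO. The part of handling or stimulation in the levels of Mcl1, Pmaip1 and Bbc3 was not tested, and the labels do not say what the replicate numbers of the titles mark.

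**Figure D4:**
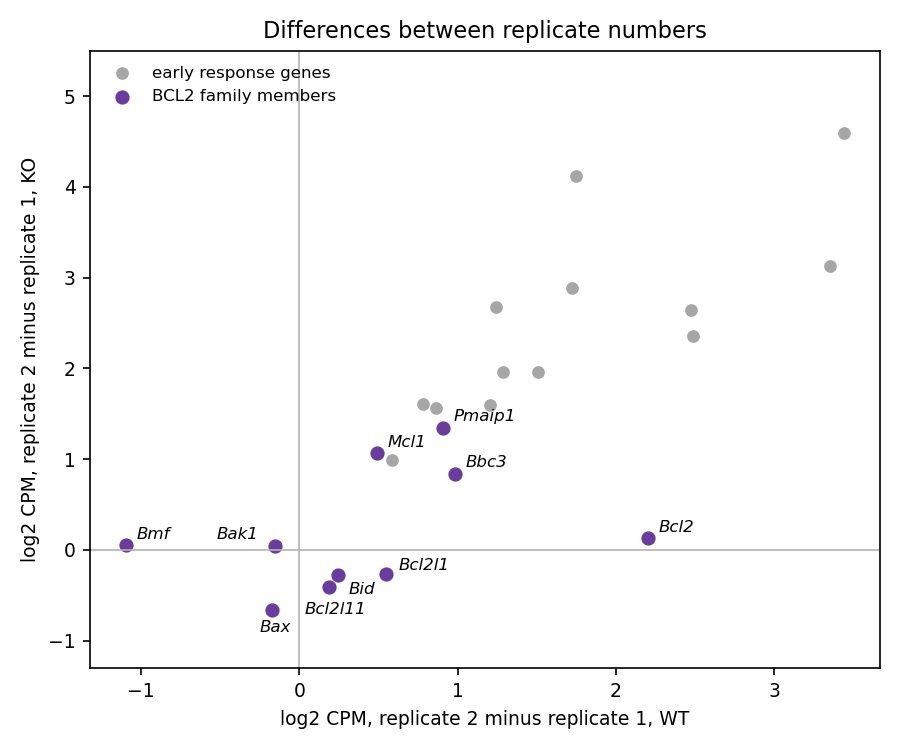
Difference in log2 CPM between replicate 2 and replicate 1, in WT (horizontal axis) and in KO (vertical axis), for the 10 BCL2 family genes (purple, named) and 13 early response genes (grey). All 13 grey points lie above 0 on both axes, and Mcl1, Pmaip1 and Bbc3 lie next to the lowest of them.

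Other nearest profiles, by the same measure, were Casp8 for Bid (0.023), Dynll2 for Bak1 (0.031), Foxo1 for Bax (0.081), Cflar for Bcl2l1 (0.15), Dffa for Bmf (0.18) and Sesn1 for Bcl2 (0.32). The value for Bcl2 was the largest, so its pattern had no close match among the 120 genes.

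Genes that act beside the family were taken from 8 lists with 123 further genes, 111 of them tested. Of these 111, 0 passed edgeR over all genes and 8 had an unadjusted p under 0.05, against 7.67% of all genes. DESeq2 called 2 of 119 with a count as higher in KO, Tnfrsf1b and Hspa1b, and 0 as lower. Of the 13422 genes to which it gave an adjusted p it called 2.62%, while some of the 119 had no adjusted p. Both counts were near the shares of all genes.

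Of 17 other BCL2 family genes 11 were tested, 5 above 0 and 6 below, with a median log2 fold change of -0.12. Bnip3l, a mitophagy receptor with a BH3-like region, had 145 and 130 CPM in WT against 222 and 186 CPM in KO, a log2 fold change of 0.57 (SE 0.21), and Bcl2l13 92.3 and 121 CPM in WT against 78.1 and 102 CPM in KO. The Bcl2a1 genes are near-identical copies that can share or lose reads, so their values are uncertain: Bcl2a1b had 8.25 and 14.4 CPM in WT against 20.3 and 2.88 CPM in KO. Hrk and Bcl2l10 had no count in any library.

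Downstream of the mitochondria, 18 of 18 apoptosome, caspase and inhibitor genes were tested, with a median of 0.028. Apaf1, which assembles the apoptosome, had 159 and 162 CPM in WT against 158 and 207 CPM in KO. Birc6, an inhibitor of apoptosis, had 225 and 241 CPM in WT against 235 and 300 CPM in KO.

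In the death receptor pathway, which reaches the family through Bid, 7 of 14 tested genes were above 0 and 7 below. The unadjusted edgeR p was under 0.05 for 4 of the 14, against 7.67% of all genes. Both KO libraries were above both WT libraries for 4 and below for 4, against 18.1% and 19.1% of all tested genes. Tnfrsf1b, the gene of TNF receptor 2, had 85.7 and 69.8 CPM in WT against 199 and 140 CPM in KO. Its log2 fold change was 1.12 (SE 0.26). It rose by DESeq2 (adjusted p = 0.0229), but not by edgeR (adjusted p = 0.444), and DESeq2 kept the call in 1 of 4 settings with a library left out, without KO replicate 2 (adjusted p = 0.00591), losing it without WT replicates 1 and 2 (0.295 and 0.522) and KO replicate 1 (0.381). Tnfrsf1a, the gene of TNF receptor 1, had 161 and 129 CPM in WT against 248 and 211 CPM in KO. Mlkl, the pore protein of necroptosis, had 109 and 275 CPM in WT against 63.4 and 100 CPM in KO, a log2 fold change of -1.23 (SE 0.50), and -0.40 without WT replicate 2.

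Regulators of family genes had a median of 0.031 over 20 tested genes. Atf4, a factor of the integrated stress response, had 258 and 286 CPM in WT against 322 and 486 CPM in KO, and Nfkb1 216 and 423 CPM in WT against 305 and 363 CPM in KO. Pim1, a survival kinase induced by STAT factors, had 27.6 and 24.4 CPM in WT against 28.8 and 194 CPM in KO, so that its log2 fold change of 2.10 was 0.15 without KO replicate 2. Trp53 itself had 111 and 112 CPM in WT against 151 and 122 CPM in KO, a log2 fold change of 0.30 (SE 0.21). It was named after its values were seen, beside the p53 targets. Of 13 tested p53 targets outside the family 6 were above 0, with a median of -0.014, beside -0.23, -0.089 and 0.16 for the family's own targets Bax, Bbc3 and Pmaip1. Trp53inp1 had 27.3 and 31.2 CPM in WT against 47.1 and 52.5 CPM in KO, a log2 fold change of 0.77 (SE 0.22), while Ei24 had 0.24 (SE 0.20) and Ccng1 0.017 (SE 0.26), the latter -0.036 with library sizes alone as scaling.

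Genes that control family proteins, among them ubiquitin ligases of MCL1 and channel proteins that hold BAK, had a median of -0.068 over 14 tested genes. Ywhaz, a 14-3-3 protein that can retain BAD, had 409 and 281 CPM in WT against 594 and 353 CPM in KO, and its log2 fold change of 0.46 was 0.034 without KO replicate 1. Vdac2, a channel that binds BAK, had 320 and 339 CPM in WT against 364 and 296 CPM in KO. Among early response genes 12 of 13 were above 0 in KO over WT, with a median of 1.14. The groups were separated for 0 of 13, against 18.1% of all tested genes with KO above and 19.1% with KO below. Jun had 303 and 1002 CPM in WT against 383 and 2832 CPM in KO, Fos 177 and 991 CPM in WT against 408 and 2098 CPM in KO, and Zfp36 205 and 583 CPM in WT against 410 and 1600 CPM in KO. Without KO replicate 2 their log2 fold changes of 1.30, 1.10 and 1.35 were -0.77, -0.52 and 0.058.

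Heat shock genes had a median of 0.087 over 8 genes. Hspa1b, which shares reads with its near-identical copy Hspa1a and is therefore uncertain, had 0.400 and 1.54 CPM in WT against 6.25 and 73.9 CPM in KO. It rose by DESeq2 (adjusted p = 0.0379), but not by edgeR (adjusted p = 0.465), and DESeq2 kept it without KO replicate 1 (adjusted p = 1.96e-12) and lost it without WT replicates 1 and 2 (0.674 and 0.0865) and KO replicate 2 (0.436). The log2 fold change was 0.025 (SE 0.60) for Hspa8 and 0.15 (SE 0.43) for Hsp90aa1, and these values were -1.18 and -0.59 without KO replicate 2, and that of Hspa8 was -0.065 with library sizes alone as scaling.

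**Figure D5:**
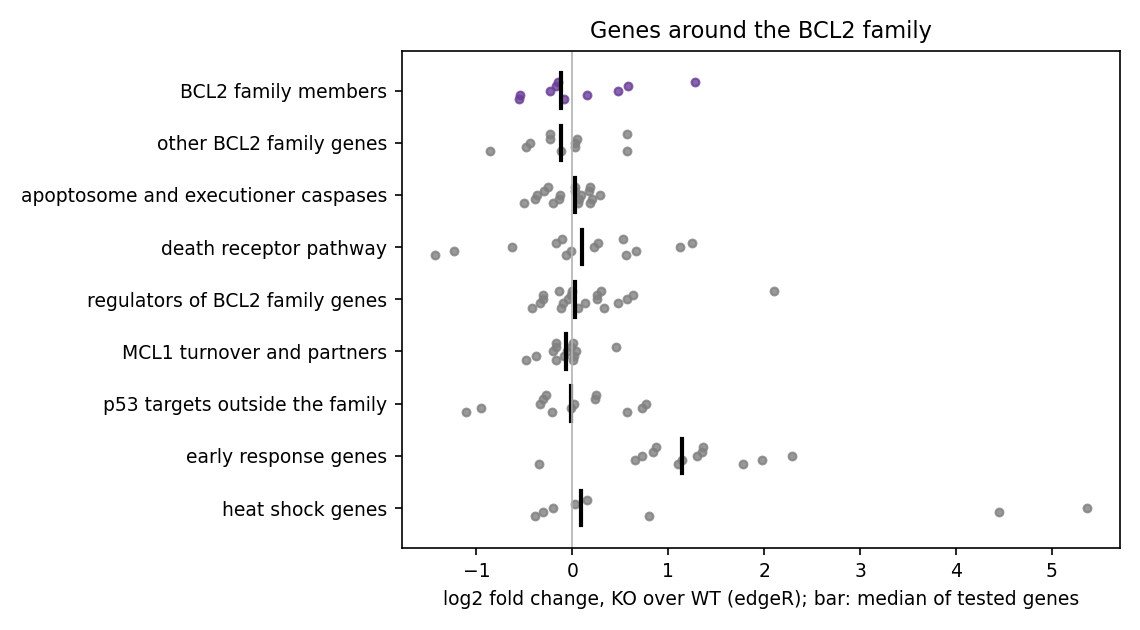
Log2 fold change of KO over WT by edgeR (horizontal axis), 1 point per tested gene, for the 10 BCL2 family genes (purple) and 8 lists of related genes (grey), with a black bar at each median. The median of the early response genes is 1.14, and the other medians lie between -0.12 and 0.11.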

How the data were processed

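The authors deposited raw counts per gene symbol, 1 file per RNA library (2 WT, 2 KO). Per the submitters' processing notes, STAR 2.3.0 and HTSeq were among the tools and mm10 was the build. No source used here gives the annotation, the strand setting or any read filter. The 5 closing rows of unassigned reads, 69.3% to 72.4% of all counts, entered neither library sizes nor tests. The 4 ATAC-seq samples were not analysed here.

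KO was compared with WT in R 4.3.3 with edgeR 4.0.16 (filterByExpr, TMM factors, robust quasi-likelihood F-test, no covariate, Benjamini-Hochberg over 12623 genes, threshold 0.05). The SE was the log2 fold change over the square root of F, and 95% intervals used the test's degrees of freedom (median 5.38). DESeq2 1.42.0 (run on 16651 genes with a count) and limma 3.58.1 (voom) were alternatives, and all 3 were run on simulated counts. The simulation gave every gene the same dispersion, so it does not show how the tools perform on these libraries. Differences between libraries used log2 CPM with a prior count of 2. Counting noise did not account for the difference between replicates of a group (chi-square per degree of freedom 80.5 in WT and 109 in KO over genes with at least 10 counts).

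Levels per length had been planned, but exon lengths were not used here, so ratios rest on CPM. The genes and lists were chosen with earlier results of these data known. Genes named are the 10 members and, from each list, those called by edgeR or DESeq2, the 2 of highest mean CPM and the 1 of smallest edgeR p, beside each member's nearest profile. Others are named as chosen afterwards or as examples of uncertain copies and markers. One gene that this rule names is not reported here.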

Additional observations from a re-analysis of the deposited data

How the results depend on the processing

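Over all genes edgeR called 0, and 4 with no filter on low counts, 11 with a replicate block and 0 to 156 with a library left out (50 without WT replicate 1 and 156 without WT replicate 2, with the single remaining WT library taken to vary as KO does). DESeq2 called 352 and, with a library left out (settings added after seeing the data), 162 (WT replicate 1), 390 (WT replicate 2), 178 (KO replicate 1) and 384 (KO replicate 2). Of the 10 BCL2 family genes edgeR called 0 in each of these settings and DESeq2 1, and 0 to 1 with a library left out. Of the list genes edgeR called 0, and 1 with a replicate block (Hspa1a), and DESeq2 2, then 1, 3, 4 and 3 in the same order of omitted libraries. The replicate numbers are numbers shared by the titles and not by the names of the files: with 2 pairs the deviations of same-numbered libraries correlated at 0.19 across 12623 genes, and the block changed no call among the 10 family genes. The survival to death difference of 0.45 ran from 0.14 without Mcl1 to 0.75 without KO replicate 1, where the remaining KO library was above both WT libraries. The alternatives by transcript length were not run.

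For 32 named genes, 297 of 332 alternative values kept their sign and their side of the threshold, 6 passed the threshold and 29 turned sign, over 14 genes. With a library left out, edgeR's log2 fold change ran from -1.26 to 0.96 for Bcl2, -0.044 to 1.02 for Mcl1, -0.60 to 0.059 for Bax, -0.58 to 0.51 for Bbc3, -0.67 to 0.70 for Pmaip1, -0.99 to 0.10 for Bmf, -0.020 to 0.37 for Apaf1, -0.34 to 0.64 for Nfkb1, -0.15 to 0.15 for Vdac2, -0.28 to 0.27 for Ccng1, -0.77 to 2.42 for Jun, -0.52 to 2.84 for Fos, -1.18 to 0.68 for Hspa8 and -0.59 to 0.64 for Hsp90aa1. Values near 0 turned with voom, library sizes alone and the replicate block: -0.004, -0.056 and -0.004 for Vdac2, -0.003, -0.036 and -0.003 for Ccng1, and -0.25, -0.065 and -0.25 for Hspa8. The cause was not tested.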
